A study of Mus musculus with 21 samples.

Results

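The genes described here are the chromatin regulator families of the mouse: the Smarc and Chd remodelling subunits, the Hdac and Sirt deacetylases, the Kdm demethylases, the Kmt and Setd methyltransferases, the Brd and Cbx readers, the Dnmt DNA methyltransferases and the high mobility group families Hmga, Hmgb and Hmgn. A gene was taken when the probe annotation gave its probe 1 symbol and that symbol fell in 1 of these families, with values on at least 3 arrays of each comparison. The annotation named 70 such genes on 116 probes, and 53 of them, on 73 probes, passed, out of 4465 genes measured in this way. They comprise 10 Smarc, 4 Chd, 3 Hdac, 10 Kdm, 6 Kmt, 5 Setd, 6 Brd, 2 Cbx and 1 Dnmt gene, with 1 Hmga, 2 Hmgb and 3 Hmgn genes. The 17 genes that did not pass all had fewer than 3 knockout arrays, and both measured sirtuins, Sirt1 and Sirt7, were among them. Dnmt1, Smarca2 and Hdac4 to Hdac8 were not analysed here.

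DNA in the nucleus is wound around histones, and these proteins decide how open it is. Methyltransferases and acetyltransferases write marks on histone tails, demethylases and deacetylases erase them, bromodomain and chromodomain proteins read them, remodellers slide or evict nucleosomes, and high mobility group proteins bind DNA or nucleosomes and loosen their packing. The male germ line rebuilds its chromatin more than most tissues: spermatocytes silence the X and Y chromosomes during meiosis, and spermatids later replace most histones with protamines, a step for which the testis bromodomain protein Brdt is known.

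Each array compared the RNA of 2 sources in 2 colours and gave 1 log2 ratio per probe. Whole ovary was set directly against whole testis on 4 arrays, both wild type. Whole testis was set against Universal mouse reference RNA (Stratagene), a commercial pool, on 4 arrays, and whole ovary against the same reference on 5. Wild type testis of 15 day old mice was set against adult wild type testis on 4 arrays, and whole testis of Spo11 knockout mice against wild type testis on 4. The labels give no age for the animals of the other comparisons, no strain, and no statement of how many animals an array stands for. Spo11 makes the DNA breaks that start meiotic recombination; without it spermatocytes are known to arrest in meiotic prophase, and a 15 day testis has not yet made spermatids, so both samples hold fewer late germ cells than an adult wild type testis. In whole organs, fewer cells of a type and less RNA per cell cannot be told apart. Spo11 itself was not analysed here, so the deletion was not checked on its own gene. Tekt2, a tubulin-binding protein of the sperm tail, was lower in knockout than in wild type testis, with a log2 ratio of -5.73 ± 0.33 (SE, n = 4), and lower in 15 day than in adult testis, at -4.69 ± 0.33 (SE, n = 4). Oaz3, the other spermatid marker measured, did not follow it: its means of -0.35 ± 0.32 in the knockout and 0.24 ± 0.27 in the 15 day testis were not called, and it was 0.79 ± 0.27 in ovary over testis and -2.20 ± 0.32 in testis over reference.

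The labels state neither the base of the logarithm nor which source is on top of the ratio. The values fit base 2 with the first-named source on top (ovary, 15 day, knockout, or the tissue over the reference), which is likely and not certain; with the sign turned, every direction given here would turn. Arrays of both colour orders had been turned the same way in the deposited values, since arrays of 1 comparison correlated at 0.471 to 0.925. Each array was centred on its median, which lowered the values by 0 to 0.13. Arrays carried 6452 to 14012 of 16128 probe values, and the fewest were on ovary to testis array 1. A gene was called where limma's moderated test gave a Benjamini-Hochberg adjusted p under 0.05 over all 4465 genes, and "higher" or "lower" without a qualifier below means called. A gene's value is the mean of its probes that passed the filter on arrays, and calls refer to that value. Values of a probe that missed the filter come from a fit per probe, and those of a gene with such probes included from a filter on the arrays of 1 comparison at a time; both were added after the data were seen. Errors are standard errors of that fit, over 4 arrays, or 5 for ovary over reference, unless fewer are stated. The labels do not say that the arrays of a comparison came from separate animals, so the p-values cover only how far these arrays differ, and part or all of that may be technical.

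The 3 Hmgn genes moved together in the testis comparisons, and Brdt gave the widest disagreement between probes of 1 gene among the results below, so the 250 bases before the RefSeq start of these 4 genes are shown first (build GRCm38.p6, gene strand, 5′ to 3′). Capitals mark CCAAT, the letters known as the box bound by the factor NF-Y, on either strand (ATTGG on the strand shown). Hmgn1 lies at chr16:96127726-96127975 on the minus strand, Hmgn2 at chr4:133967992-133968241 on the minus strand, Hmgn5 at chrX:109013381-109013630 on the minus strand and Brdt at chr5:107330944-107331193 on the plus strand.
Hmgn1: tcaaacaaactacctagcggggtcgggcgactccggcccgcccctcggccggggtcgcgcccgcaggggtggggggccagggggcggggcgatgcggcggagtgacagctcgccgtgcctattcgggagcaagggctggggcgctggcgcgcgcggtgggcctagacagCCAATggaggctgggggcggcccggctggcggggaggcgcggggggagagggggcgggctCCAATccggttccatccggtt
Hmgn2: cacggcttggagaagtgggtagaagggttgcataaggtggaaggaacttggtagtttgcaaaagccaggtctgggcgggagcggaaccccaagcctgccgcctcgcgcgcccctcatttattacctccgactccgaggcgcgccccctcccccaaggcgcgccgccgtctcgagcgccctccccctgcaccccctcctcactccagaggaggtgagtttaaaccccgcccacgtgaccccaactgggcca
Hmgn5: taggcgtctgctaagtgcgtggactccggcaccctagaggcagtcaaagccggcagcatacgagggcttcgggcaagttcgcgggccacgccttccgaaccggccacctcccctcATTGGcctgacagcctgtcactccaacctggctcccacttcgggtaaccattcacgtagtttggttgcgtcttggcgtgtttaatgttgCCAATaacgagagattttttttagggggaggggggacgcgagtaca
Brdt: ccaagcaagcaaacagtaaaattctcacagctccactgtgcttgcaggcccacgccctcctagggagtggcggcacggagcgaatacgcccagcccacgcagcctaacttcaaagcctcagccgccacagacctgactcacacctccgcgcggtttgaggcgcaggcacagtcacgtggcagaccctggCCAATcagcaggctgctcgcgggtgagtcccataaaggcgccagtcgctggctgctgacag
The Hmgn1 stretch holds CCAAT at 81 and 21 bases before the start, Hmgn5 at 135 and 46, and Brdt at 61, while the Hmgn2 stretch has none. Of 32851 promoter stretches of this length, 33.8% hold CCAAT. The E-box letters CACGTG, which read the same on both strands, are in the Hmgn2 and Brdt stretches, at 21 and 78 bases before the start, and in 6.02% of all. GGGCGG, the letters known from Sp1 sites, searched on both strands, occurs 4 times before Hmgn1, 2 times before Hmgn2, not before Hmgn5 or Brdt, and in 32.7% of all. None of these 3 motifs is in all 3 Hmgn stretches.

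Across the families, the direct ovary to testis comparison called 9 members higher in ovary and 13 lower, 41.5% of the 53, where 59.0% of all genes were called, 22.4% higher and 36.5% lower. In 15 day against adult testis 17 members were higher and 7 lower, 45.3% against 46.1% of all genes, of which 18.0% were higher and 28.1% lower. In Spo11 knockout against wild type testis 16 were higher and 9 lower, 47.2% against 57.2% of all genes, 26.7% higher and 30.5% lower. Testis over reference gave 14 higher and 12 lower, 49.1% against 61.4% of all genes, 35.5% higher and 25.9% lower. Ovary over reference gave 4 higher and 5 lower, 17.0% against 22.9% of all genes, 9.54% higher and 13.4% lower. The members were thus called no more often than genes at large in any of the 5 comparisons, and the families hold genes that moved in both directions in each.

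The split by direction leaned to higher ratios in the 15 day testis. The median log2 ratio of the 53 members there was 0.28 and that of all genes -0.07. In the knockout the 2 medians were 0.11 and -0.04, in ovary over testis -0.16 and -0.18, in testis over reference 0.18 and 0.12, and in ovary over reference 0.05 and -0.06. Arrays with neighbouring numbers in their titles form 5 runs, and the counts moved between them. Within run 2 the 2 arrays of the 15 day comparison gave 5 higher and 3 lower members, and within run 5 the other 2 gave 20 and 8. Ovary over testis gave 9 and 18 within run 4, and testis over reference 9 and 8 within run 3. Ovary over reference gave 0 and 0 within run 3 and 8 and 6 within run 5. Each of these fits rests on 2 arrays of the comparison. The shares of all genes called in them are not given here, so these counts have no background beside them. All 4 knockout arrays belong to run 1, so that comparison has no second run.

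**Figure D1:**
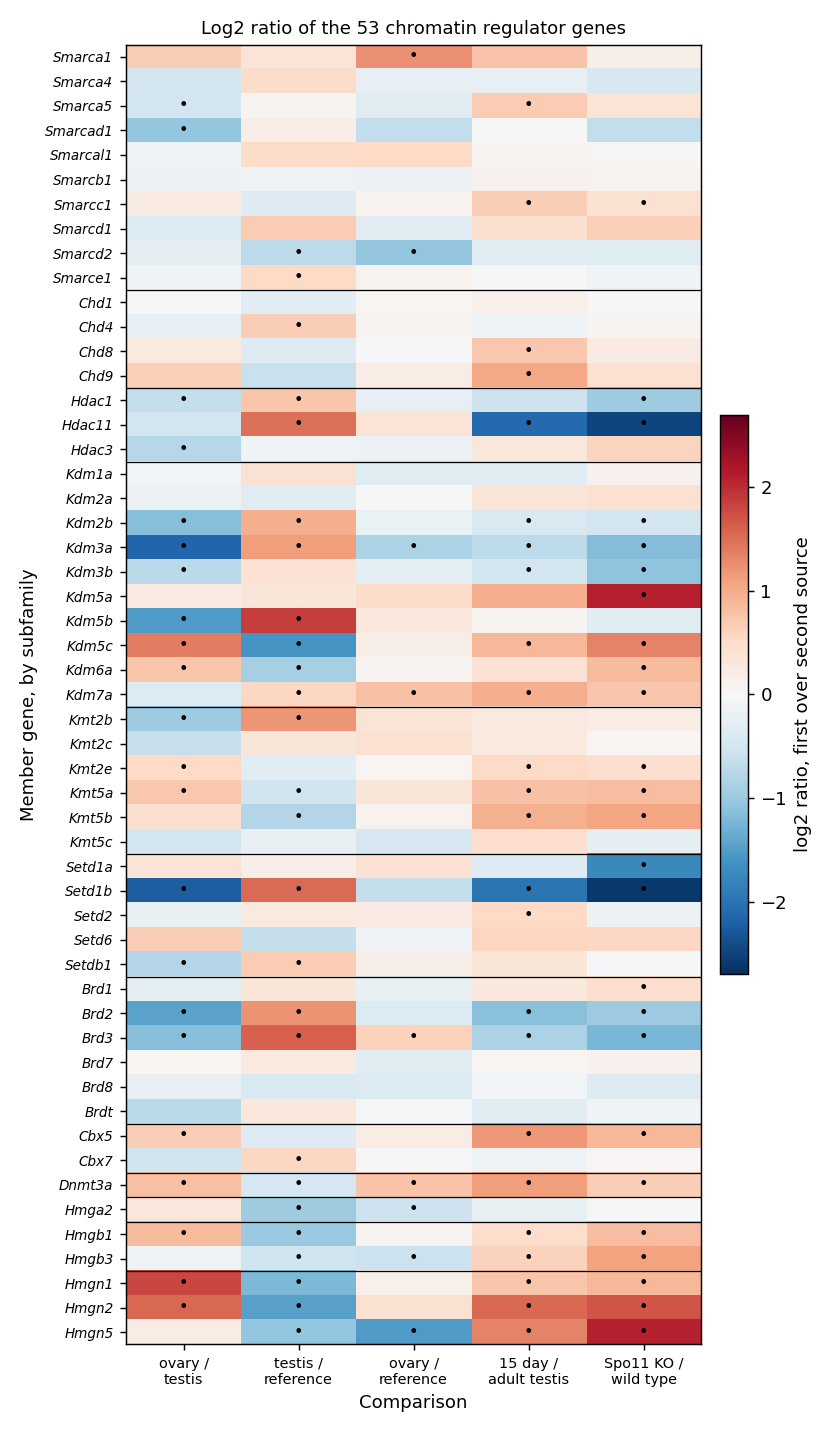
Mean log2 ratio of the 53 members (rows, by subfamily, lines between subfamilies) in the 5 comparisons (columns), red where the first-named source is higher and blue where it is lower; a dot marks a gene called at an adjusted p under 0.05. The 3 Hmgn genes at the bottom are red in both testis comparisons on the right and blue in testis over reference, and Setd1b and Hdac11 show the opposite colours.

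Among the enzymes that methylate histones, Setd1b was far lower in ovary, 15 day testis and knockout testis on the probe that passed the filter. It is the catalytic subunit of a COMPASS complex, which methylates histone H3 at active promoters. Its ovary to testis ratio was -1.26, -2.62, -1.92 and -3.12 on the 4 arrays, a mean of -2.23 ± 0.26 (4.69-fold lower in ovary, limma adjusted p = 3.86e-07). In 15 day over adult testis it was -2.40, -1.42, -2.11 and -1.94, with a mean of -1.97 ± 0.26 (adjusted p = 3.91e-06). All 8 of these values lay below 0, and the values of the 2 comparisons overlapped. In the knockout it was -2.77, -2.91, -2.22 and -2.51, a mean of -2.60 ± 0.26 and 6.07-fold lower than wild type (adjusted p = 6.48e-08). Against the reference, testis read 1.40, 1.84 and 1.32 on the 3 arrays with a value, a mean of 1.52 ± 0.30. Ovary over reference was -0.54, -0.02, -1.70, -0.58 and -0.36, and its mean of -0.64 ± 0.23 was not called (adjusted p = 0.0517). On this probe Setd1b was above the reference pool on every testis array with a value and below it on every ovary array. A second Setd1b probe, which missed the filter, did not show this pattern. It read 0.76 and 0.92 on its 2 knockout arrays, opposite in sign to the first, and -0.80 and -0.94 on its 2 arrays of the 15 day testis. Its ratio was -0.14 ± 0.22 in ovary over testis, 0.55 ± 0.25 in testis over reference and 0.07 ± 0.16 in ovary over reference. With both probes the gene was -1.18 in ovary over testis.

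Setd1a, the catalytic subunit of the sister complex, did not share that pattern. Its knockout ratio was -1.63, -1.44, -3.62 and -0.29, a mean of -1.75 ± 0.34 (adjusted p = 0.000174), with every array below 0 and a wide spread. Without knockout array 3 the mean was -1.12, still called. Its other means lay between -0.35 ± 0.34 in the 15 day testis and 0.40 ± 0.30 in ovary over reference, none of them called.

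The related enzyme Kmt2b, which also methylates histone H3 at promoters and is known to be needed in the oocyte, was lower in ovary than in testis. Its ratio was -1.34, -0.69 and -0.82 on the 3 arrays with a value, a mean of -0.95 ± 0.23 (adjusted p = 0.00123). Against the reference, testis read 1.06, 1.18, 1.68 and 0.87, a mean of 1.20 ± 0.20, and ovary over reference 0.37 ± 0.18, not called. Its 15 day and knockout means of 0.24 ± 0.20 and 0.20 ± 0.20 were not called. Kmt2c, an enzyme of enhancers, was called in no comparison, with means between -0.61 ± 0.30 in ovary over testis and 0.42 ± 0.23 in ovary over reference. A second Kmt2c probe, which missed the filter, went the opposite way in ovary over testis, at 0.88, 1.05 and 1.31, and with both probes the gene was 0.23 there and not called.

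A second group of writers ran the other way. Kmt5a, which adds the first methyl group to histone H4, was higher in ovary than testis at 0.73 ± 0.17, in 15 day testis at 0.79 ± 0.17 and in knockout testis at 0.83 ± 0.17. It was lower in testis than the reference at -0.54 ± 0.17; without testis over reference array 1 or 3 the values of -0.44 and -0.43 were not called. Kmt5b, which adds further methyl groups to histone H4 in heterochromatin, was higher in the 15 day testis (0.96 ± 0.20) and the knockout (1.06 ± 0.20) and lower in testis over reference (-0.79 ± 0.20). That last call did not hold with a further Kmt5b probe that missed the filter, which read 0.28 ± 0.20; the gene was then -0.43 and not called. Its paralogue Kmt5c was called nowhere. Kmt2e, a chromatin reader of the same gene family, was higher in ovary (0.54 ± 0.17, n = 3), 15 day testis (0.54 ± 0.14) and knockout testis (0.45 ± 0.14).

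Of the other Setd genes, Setdb1, which writes the repressive methylation of histone H3 that silences retroelements, was lower in ovary than testis on every array, at -0.71, -0.80, -0.79 and -0.89. The mean was -0.80 ± 0.19 (adjusted p = 0.00116), and testis over reference was 0.69 ± 0.19. Its 15 day and knockout means of 0.32 ± 0.19 and -0.03 ± 0.19 were not called. Setd2, which methylates histone H3 in transcribed genes, was higher in the 15 day testis at 0.54 ± 0.21, but leaving out any 1 of the 4 arrays ended the call (0.51 to 0.58). Setd6, which also methylates proteins other than histones, was called in no comparison by the stated rule. With the added filter and fit on 1 comparison at a time, Setd6 was called higher in ovary over testis (0.67 ± 0.22). It was likewise called higher in the 15 day testis (0.57 ± 0.13) and the knockout (0.56 ± 0.18). Setd6 was not called under that filter in testis over reference (-0.65 ± 0.45) or ovary over reference (-0.10 ± 0.20).

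Dnmt3a, which sets new DNA methylation and is known to establish imprints in the germ line, was the only Dnmt gene that passed, and it was called in all 5 comparisons. Ovary over testis was 0.44, 0.88, 1.14 and 0.81, a mean of 0.81 ± 0.16 (adjusted p = 0.00021). In the 15 day testis it was 0.85, 1.12, 1.16 and 1.34, a mean of 1.12 ± 0.16 (adjusted p = 1.06e-05), and in the knockout 0.64, 0.54, 0.68 and 0.79, a mean of 0.66 ± 0.16. Averaged over 2 probes, these 12 values were all above 0, and the 15 day values all lay above the knockout values. On each probe alone the 2 comparisons overlapped. The first probe read 0.97 to 1.40 in the 15 day testis and 0.92 to 1.08 in the knockout. The second read 0.30 to 1.57 and -0.01 to 0.79. The knockout call was lost with 1 probe per gene and with probes on all 21 arrays. The difference of the 2 means was not called by limma (-0.46 ± 0.23, adjusted p = 0.363). Ovary over reference was 0.83, 0.34, 0.56, 0.95 and 1.12, a mean of 0.76 ± 0.15. Dnmt3a was lower in testis than the reference at -0.46 ± 0.16; without array 2 or array 4 it was -0.30 or -0.41 and was not called.

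Among the erasers, the Kdm demethylases moved in both directions. Kdm3a, which removes repressive methylation from histone H3 and is known to be needed for protamine genes in spermatids, was lower in ovary than in testis. On the probe that passed, its ratio was -2.03, -2.42 and -1.95 on 3 arrays, a mean of -2.13 ± 0.22 and 4.39-fold lower in ovary (adjusted p = 1.3e-07). Ovary over reference was -0.95, -0.81, -0.34, -1.21 and -0.95, a mean of -0.85 ± 0.17 (adjusted p = 0.00101), and testis over reference was 1.69, 0.60 and 1.12, a mean of 1.14 ± 0.22. On this probe Kdm3a was below the reference on every ovary array and above it on every testis array with a value. A second Kdm3a probe, which missed the filter, gave smaller ratios: -0.89 ± 0.18 in ovary over testis, 0.58, 1.16, -0.01 and 0.26 in testis over reference, and 0.12, -0.17, -0.61 and -0.32 in ovary over reference. With both probes the gene was -1.31 in ovary over testis, still called, and 0.67 in testis over reference, not called (adjusted p = 0.0608). By the stated rule Kdm3a was lower in the knockout at -1.17 ± 0.19 and in the 15 day testis at -0.71 ± 0.22 (n = 3), where the value without array 1 was -0.63 and not called.

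Its paralogue Kdm3b was lower in ovary (-0.73 ± 0.19) and in the knockout (-1.09 ± 0.19). In the 15 day testis it was -0.50 ± 0.19, a call that leaving out any 1 of the 4 arrays ended (-0.53 to -0.48). Kdm2b, which removes methyl groups from histone H3 and brings Polycomb proteins to CpG islands, was lower in ovary at -1.16 ± 0.16 and higher in testis over reference at 0.98 ± 0.16. Its decreases in 15 day (-0.41 ± 0.16) and knockout testis (-0.51 ± 0.16) were small. The first was not called without array 1, 3 or 4 (-0.37, -0.45 and -0.36), nor the second without array 1 (-0.37). Kdm2a and Kdm1a, the latter an eraser of active promoter methylation, were called in no comparison.

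Kdm5b, which removes the active methylation of promoters and is known for high expression in testis, separated the 2 kinds of comparison. Ovary over testis was -0.66, -1.75, -1.91 and -1.82, a mean of -1.53 ± 0.20 (adjusted p = 1.4e-06). For testis over reference the values were 2.23, 2.02, 1.88 and 1.30, a mean of 1.86 ± 0.20, 3.63-fold above the reference (adjusted p = 8.2e-08). Every array lay above 1, and its 2 probes, fitted one by one, read 0.98 ± 0.24 and 2.74 ± 0.25. The 15 day testis gave -0.01, 0.32, -0.01 and -0.01, a mean of 0.07 ± 0.20 that was not called (adjusted p = 0.794). In the knockout it was -0.90, 0.23, -0.32 and -0.36, a mean of -0.34 ± 0.20, also not called. The difference between its knockout and 15 day ratios was not called either (-0.41 ± 0.29).

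The X-linked paralogue Kdm5c, which removes the same mark, ran opposite to Kdm5b. Ovary over testis was 1.11, 1.79, 1.68 and 0.94, a mean of 1.38 ± 0.18 (adjusted p = 9.08e-07). Testis over reference was -1.43, -2.13, -1.45 and -1.35, a mean of -1.59 ± 0.18, while ovary over reference was 0.15 ± 0.16. Kdm5c was 0.90 ± 0.18 in the 15 day testis, and in the knockout it was 1.55, 0.80, 1.48 and 1.53, a mean of 1.34 ± 0.18, 2.53-fold higher than wild type. Every array of these 3 testis comparisons kept its sign. Kdm5a, the third paralogue measured, was higher in the knockout. The probe that passed the filter had 3 knockout arrays, at 4.47, 0.11 and 1.72, with a mean of 2.10 ± 0.53; without array 1 the value was 0.92 and not called, and without array 2 it was 3.10. A second Kdm5a probe, which missed the filter, had all 4 knockout arrays, at 2.16, 1.63, 2.09 and 1.56. Its mean was 1.86 ± 0.20 (adjusted p = 0.000871 in limma's fit per probe). With all 3 Kdm5a probes the added filter called the gene higher in ovary over reference (0.59 ± 0.13), where the stated rule did not.

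Kdm6a, an X-linked eraser of the Polycomb mark on histone H3, was higher in ovary (0.75 ± 0.19) and knockout testis (0.86 ± 0.19) and lower in testis over reference (-0.90 ± 0.19). Its 15 day mean of 0.39 ± 0.19 was not called (adjusted p = 0.108). Kdm7a, an eraser of repressive marks, was higher in 15 day testis (0.99 ± 0.20, n = 3), knockout testis (0.74 ± 0.20, n = 3) and both tissues over the reference. Its ovary over reference values were 0.46, 0.99, 0.59, 1.13 and 0.83, a mean of 0.80 ± 0.15, and all lay above 0. Its testis over reference value of 0.57 ± 0.17 was 0.43 and not called without array 1. It was also not called (0.64) with 2 further Kdm7a probes that missed the filter, which read 1.39 ± 0.31 and -0.0033 ± 0.26 there. It was not called between ovary and testis (-0.36 ± 0.20).

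Of the deacetylases, Hdac11, the only member of its class, fell most in both testis comparisons. The 15 day ratio was -2.75, -0.52, -2.71 and -2.42, a mean of -2.10 ± 0.32 (adjusted p = 2.45e-05), with array 2 far above the other 3. The knockout ratio was -2.55, -2.32 and -2.59 on 3 arrays, a mean of -2.49 ± 0.37 and 5.60-fold lower than wild type (adjusted p = 1.19e-05). For testis over reference the values were 2.06, 1.34, 1.25 and 1.29, a mean of 1.49 ± 0.32. Ovary over reference was 0.14, 0.09, 0.31, 0.44 and 0.89, a mean of 0.37 ± 0.29 that was not called, so every testis array lay above every ovary array. Ovary over testis was 0.99, -1.03, -1.38 and -0.67, with array 1 alone above 0, and its mean of -0.52 ± 0.32 was not called (adjusted p = 0.172).

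Hdac1, a core enzyme of the Sin3 and NuRD repressor complexes, was lower in the knockout (-0.95 ± 0.24) and in ovary over testis (-0.64 ± 0.24). The call in ovary over testis was lost without array 2, 3 or 4 (-0.61, -0.42 and -0.43). In testis over reference it was 0.75 ± 0.24, and 0.59 and not called without array 1. In the 15 day testis Hdac1 was not called by the stated rule. The added filter and fit on 1 comparison at a time called it lower there (-0.55 ± 0.13). Its 2 probes differed: fitted one by one, they read -1.72 ± 0.21 (n = 3) and -0.19 ± 0.28 in ovary over testis, and -1.33 ± 0.19 and -0.37 ± 0.27 (n = 3) in the knockout. Hdac3, the enzyme of the NCoR corepressor, was called lower in ovary at -0.77 ± 0.32 on the strength of 1 array: the 3 values were -2.36, 0.13 and -0.08, and without array 2 the mean was 0.03.

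**Figure D2:**
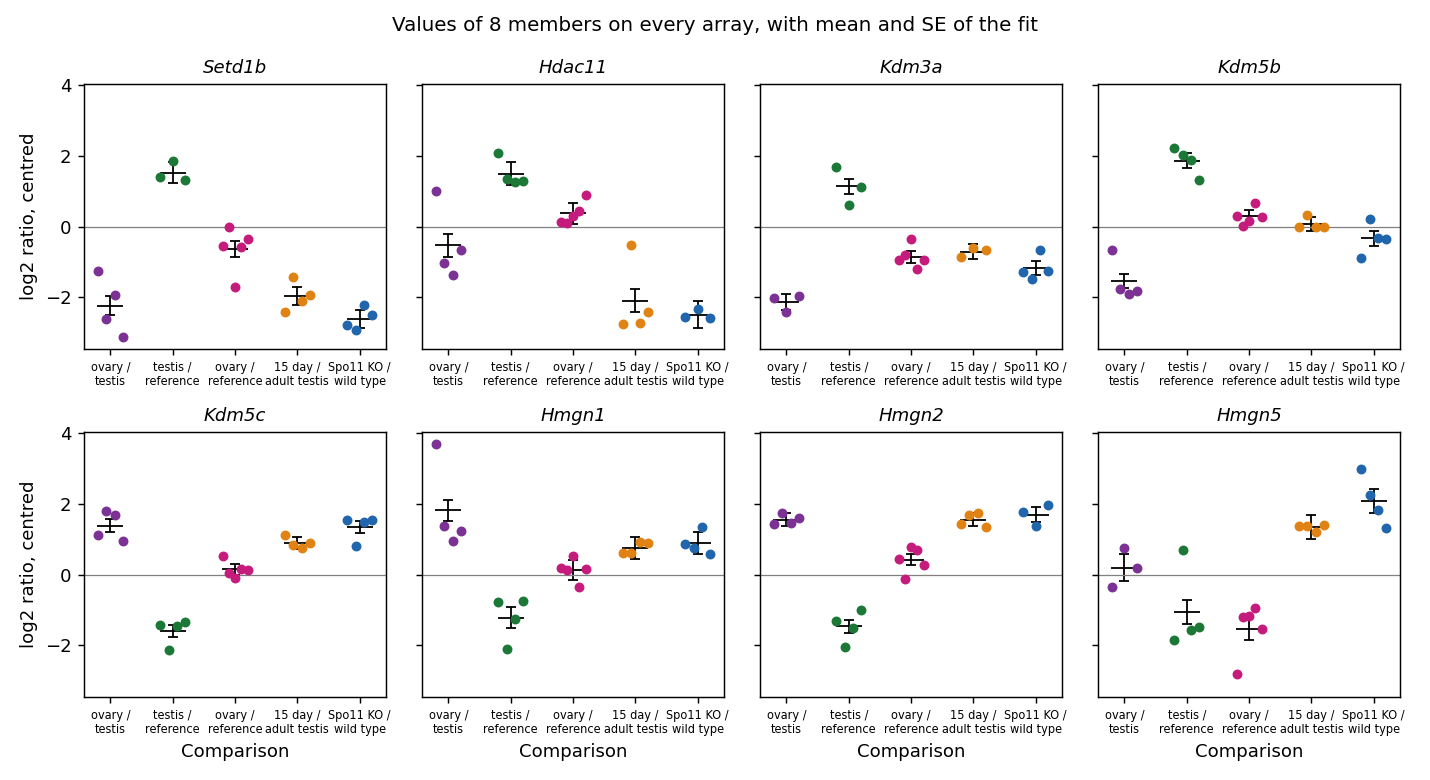
Centred log2 ratios of 8 members on every array (points) in the 5 comparisons (horizontal axis), with the mean (black bar) and its standard error. Setd1b, Hdac11 and Kdm3a lie below 0 in 15 day and knockout testis and above 0 in testis over reference, Kdm5c, Hmgn1 and Hmgn2 do the opposite, and Kdm5b stays near 0 in the 15 day testis.

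Among the readers, Brd2 and Brd3, double bromodomain proteins of the BET family that bind acetylated histones, were lower in ovary, 15 day testis and knockout testis. Brd2 was -0.88, -1.01, -1.64 and -2.25 in ovary over testis, a mean of -1.45 ± 0.19 (adjusted p = 1.48e-06). In the 15 day testis it was -1.26, -0.78, -1.26 and -1.18, a mean of -1.12 ± 0.19, in the knockout -0.98 ± 0.19, and in testis over reference 1.21 ± 0.19. No array of these 4 comparisons went against its mean's sign. Brd3 was -1.14 ± 0.21, -0.85 ± 0.21 and -1.23 ± 0.21 in the same 3 comparisons. Testis over reference for Brd3 was 1.76, 1.88, 1.41 and 1.40, a mean of 1.61 ± 0.21 (adjusted p = 1.3e-06), and ovary over reference 0.48, 1.24, 0.53, 0.23 and 0.67, a mean of 0.63 ± 0.19. All testis arrays lay above all ovary arrays; the ovary call was lost without array 2 (0.48) or array 5 (0.62).

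The means of the 3 Brd3 probes agreed in sign in both testis comparisons and in ovary over testis, but not in size. Fitted one by one the probes gave -0.29 ± 0.27, -1.73 ± 0.19 and -1.75 ± 0.23 (n = 3) in ovary over testis. In testis over reference they gave 0.49 ± 0.27, 1.96 ± 0.20 and 2.39 ± 0.22. In the 15 day testis they gave -0.42 ± 0.22, -0.54 ± 0.39 and -1.60 ± 0.16, and the second read 0.34 and 0.37 on arrays 1 and 2. The Brd3 call there was lost with 1 probe per gene, with probes on all 21 arrays and within run 2 alone. With 1 probe per gene, the calls in ovary over testis and testis over reference were lost too. Of the other Brd genes, Brd1, a scaffold of acetyltransferase complexes, was higher in the knockout at 0.45 ± 0.15; the call was lost without array 2 (0.32) or array 4 (0.41). Brd7 and Brd8, subunits of the PBAF remodeller and of an acetyltransferase complex, were called in no comparison.

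Brdt, the BET protein made in testis, depended on the probe. It has 3 probes, and only probe 3046861 had values on 3 arrays of every comparison. On that probe ovary over testis was -0.23, -1.42 and -0.51, a mean of -0.72 ± 0.32 that was not called (adjusted p = 0.0637). Testis over reference was 1.48, 0.08, 0.44 and -0.81, a mean of 0.30 ± 0.28, and the 15 day and knockout means were -0.30 ± 0.32 and -0.12 ± 0.32, neither of them called. By the stated rule, Brdt was thus not called in any of the 5 comparisons.

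The other 2 Brdt probes showed large differences. They missed the filter through ovary over reference alone, where probe 3058595 had 1 value (0.26) and probe 3065487 none, and their fits were added after these values were seen. Probe 3065487 read -5.47, -5.67, -4.69 and -5.58 in ovary over testis, a mean of -5.35 ± 0.24, and probe 3058595 read -4.41, -3.87 and -4.31, a mean of -4.20 ± 0.22. In testis over reference the first gave 4.41, 6.06, 7.43 and 5.11 and the second 3.15, 5.36, 3.72 and 3.81, with means of 5.75 ± 0.50 and 4.01 ± 0.39. All 15 of these values were larger in size than any value of probe 3046861. Their 15 day means were -2.19 ± 0.18 and -1.84 ± 0.15, and in the knockout -2.86 ± 0.15 and -2.85 ± 0.28, again with every array below 0. With all 3 probes the added filter called Brdt lower in ovary over testis (-3.925 ± 0.37), 15 day testis (-1.56 ± 0.11) and knockout testis (-2.19 ± 0.28). It called Brdt higher in testis over reference (3.35 ± 0.26). These averages join unlike probes, and which of the 3 reports the Brdt transcript was not tested.

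**Figure D3:**
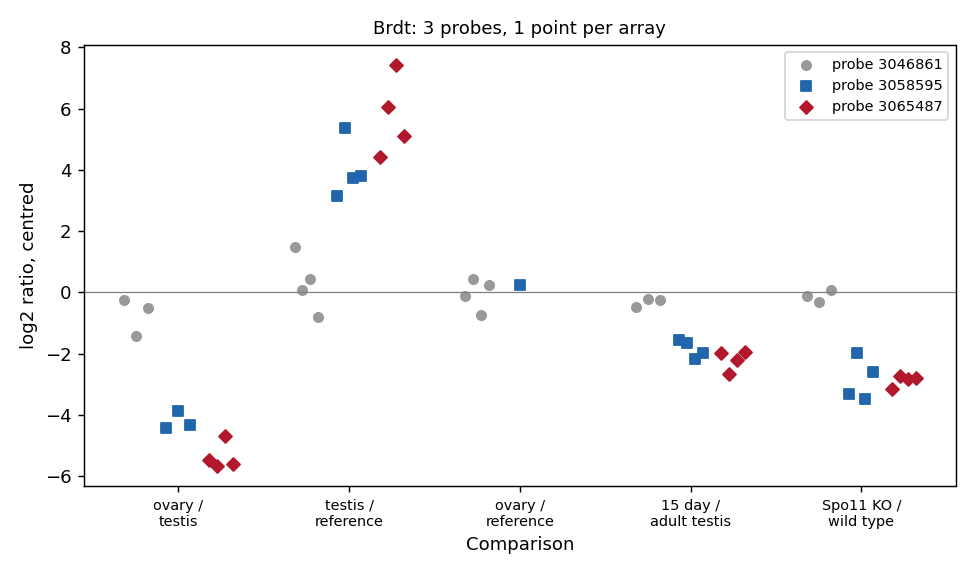
Centred log2 ratios of the 3 Brdt probes (grey circles, blue squares, red diamonds), 1 point per array with a value, in the 5 comparisons. Probe 3046861 lies within 1.5 of 0 throughout, while the other 2 lie between -6 and -3.5 in ovary over testis and between 3 and 7.5 in testis over reference.

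Cbx5, the heterochromatin protein HP1 alpha, was higher in the 15 day testis at 0.41, 1.79, 1.25 and 1.21, a mean of 1.16 ± 0.22 (adjusted p = 0.000176), and in the knockout at 0.72, 1.67, 0.56 and 0.60, a mean of 0.89 ± 0.22. Ovary over testis was 0.66 ± 0.22, not called without array 1 (0.52) or array 3 (0.60). Its 3 probes differed in sign against the reference: in ovary over reference they read -0.95 ± 0.17, -0.39 ± 0.31 and 1.34 ± 0.25, and in the 15 day testis 0.25 ± 0.14 (n = 3), 0.75 ± 0.15 and 1.69 ± 0.28. The averaged value of Cbx5 therefore joins unlike readings. With all 3 probes the added filter called Cbx5 lower in testis over reference (-0.67 ± 0.17), where the stated rule did not. Cbx7, a Polycomb chromodomain protein, was higher in testis over reference at 0.56 ± 0.22; without array 2, 3 or 4 the values of 0.48, 0.58 and 0.50 were not called. A second Cbx7 probe, which missed the filter, read 0.13 and -0.29 on its 2 arrays there.

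Among the remodellers, 2 of the 10 Smarc genes were called in ovary over testis, 2 in the 15 day testis, 1 in the knockout, 2 in testis over reference and 2 in ovary over reference. The shares of all genes called in these comparisons were 59.0%, 46.1%, 57.2%, 61.4% and 22.9%, so that the count in ovary over reference is near the background. Smarca4, the ATPase BRG1 of the SWI/SNF complexes, was called in none of these 5, with ovary over testis at -0.51 ± 0.22 (adjusted p = 0.0541) and testis over reference at 0.51 ± 0.22 (adjusted p = 0.0521). Its core partners Smarcb1 and Smarcd1 were also called in none. With the added filter and fit on 1 comparison at a time, Smarcd1 was called higher in the knockout (0.64 ± 0.22). Smarcc1, a scaffold subunit, was higher in the 15 day testis at 0.67 ± 0.17, and in the knockout at 0.41 ± 0.17, where the call was lost without array 3 (0.33) or array 4 (0.34). Smarce1, a DNA-binding subunit, was higher in testis over reference at 0.53 ± 0.21, and not called without array 2 (0.27) or array 4 (0.45).

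Single Smarc genes set the ovary apart from the reference pool. Smarca1, the X-linked ISWI ATPase, was 1.33, 0.06, 1.57, 1.43 and 1.77 in ovary over reference, a mean of 1.23 ± 0.28 (adjusted p = 0.00286) with array 2 near 0. It was not called elsewhere by the stated rule, while the added filter and fit on 1 comparison at a time called it higher in the 15 day testis (0.76 ± 0.20). Smarcd2, a SWI/SNF subunit, was -0.76, -1.11, -0.72, -1.64 and -1.06, a mean of -1.06 ± 0.17 (adjusted p = 7.52e-05), and was also lower in testis over reference at -0.70 ± 0.19. Smarca5, the second ISWI ATPase, was higher in the 15 day testis (0.68 ± 0.18) and lower in ovary over testis (-0.51 ± 0.18), a call lost without array 2, 3 or 4 (-0.40, -0.45 and -0.46). Smarcad1, a remodeller that restores silenced chromatin after replication, was -1.32, -1.07, -1.56 and -0.24 in ovary over testis, a mean of -1.05 ± 0.30. A second Smarcad1 probe, which missed the filter, read -0.18, 0.12, 0.29 and 0.08 there. With both probes the gene was -0.48 and not called (limma adjusted p = 0.0507), and the call was lost in 3 alternatives in all. The added filter also gave calls that the stated rule did not. It called Smarcad1 lower in the knockout (-0.66 ± 0.19) and ovary over reference (-0.79 ± 0.23), and Smarcal1 higher in ovary over reference (0.53 ± 0.16).

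Of the 4 Chd remodellers, none was called in ovary over testis, the knockout or ovary over reference. The shares of all genes called there were 59.0%, 57.2% and 22.9%, and 4 genes are too few to set against them. Chd8 was higher in the 15 day testis on all 4 arrays, at 0.60, 0.57, 0.83 and 0.88, a mean of 0.72 ± 0.18 (adjusted p = 0.00229). Further Chd8 probes that missed the filter read 1.01 and 0.76 on 2 of these arrays and -1.56 on 1. Chd9 was 1.05, 0.70 and 1.40 there on 3 arrays, a mean of 1.05 ± 0.35, not called without array 1 (1.05) or array 4 (0.88), while a second Chd9 probe, which missed the filter, read -0.69 and 0.03 on 2 arrays. In the knockout Chd9 was 1.39, 1.20 and -1.37, so that its mean of 0.41 ± 0.35 joins values of both signs. Chd4, the ATPase of the NuRD repressor complex, was higher in testis over reference at 0.67 ± 0.23, but without array 2, which read 1.81, the value was 0.28 and not called. Chd1, which binds active promoters, was called in no comparison. A second Chd1 probe, which missed the filter, read 2.03 and 1.34 on 15 day arrays 3 and 4, where the first read -0.09 and 0.14. On its 1 ovary to testis array, array 4, the second probe read 1.17 and the first -0.21.

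Within each comparison, every call among the high mobility group genes that passed the filter had the same direction. Of the 6 members, 5 were higher and none lower in the 15 day testis, 5 were higher and none lower in the knockout, and all 6 were lower in testis over reference. The medians were 0.69, 0.99 and -1.02, against -0.07, -0.04 and 0.12 for all genes. In ovary over testis 3 were higher and none lower (median 0.57), and in ovary over reference none was higher and 3 were lower (median -0.25). Of all genes, 18.0% were higher and 28.1% lower in the 15 day testis, and 26.7% and 30.5% in the knockout. These shares were 35.5% and 25.9% in testis over reference, 22.4% and 36.5% in ovary over testis, and 9.54% and 13.4% in ovary over reference. Without the 6 high mobility group genes, the other 47 members gave 12 higher and 7 lower in the 15 day testis. They gave 11 and 9 in the knockout, and 14 and 6 in testis over reference. Hmgb2, which missed the filter, read -0.62 and -0.14 on 15 day arrays 3 and 4 and -0.57 on knockout array 1. With the added filter Hmgb2 was 0.005 ± 0.32 in testis over reference and -0.45 ± 0.18 in ovary over testis, neither called. It was called lower in ovary over reference (-0.72 ± 0.15).

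Hmgn2, a nucleosome-binding protein that loosens packed chromatin, gave similar ratios in 3 comparisons. It was 1.42, 1.74, 1.45 and 1.59 in ovary over testis, a mean of 1.55 ± 0.17 (adjusted p = 2.36e-07). In the 15 day testis it was 1.43, 1.69, 1.73 and 1.35, a mean of 1.55 ± 0.17, and in the knockout 1.76, 1.37 and 1.95 on 3 arrays, a mean of 1.69 ± 0.20. These 11 values, from 1.35 to 1.95, overlapped across the 3 comparisons. Hmgn2 read -1.32, -2.04, -1.50 and -0.99 in testis over reference, a mean of -1.46 ± 0.17, and ovary over reference was 0.41 ± 0.16, not called (adjusted p = 0.061).

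Hmgn1, its close relative, was 3.69, 1.36, 0.94 and 1.24 in ovary over testis, a mean of 1.81 ± 0.30 (adjusted p = 2.75e-05). Array 1 lay far above the other 3, and without it the mean was 1.18, still called. Testis over reference was -0.77, -2.11, -1.26 and -0.74, a mean of -1.22 ± 0.30. Hmgn1 was 0.75 ± 0.30 in the 15 day testis, which was not called without any 1 of the 4 arrays (0.70 to 0.80), and 0.89 ± 0.30 in the knockout, which was not called without array 3 (0.74).

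Hmgn5, the X-linked member, differed from the other Hmgn genes in the ovary. The knockout ratio was 2.97, 2.25, 1.82 and 1.30, a mean of 2.08 ± 0.34 and 4.24-fold higher than wild type (adjusted p = 2.87e-05), and the 15 day ratio was 1.36, 1.38, 1.21 and 1.40, a mean of 1.34 ± 0.34. Ovary over reference was -2.80, -1.19, -1.17, -0.94 and -1.55, a mean of -1.53 ± 0.30 (adjusted p = 0.000891), with every array below 0. Testis over reference was -1.86, 0.69, -1.57 and -1.47, a mean of -1.05 ± 0.34, with array 2 alone above 0, and the call was lost without array 1, 3 or 4 (-0.78, -0.88 and -0.91). Ovary over testis was 0.20 ± 0.39 (n = 3), not called.

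Hmgb1, an abundant DNA-bending protein, was 0.82, 0.75, 0.94 and 0.86 in ovary over testis, a mean of 0.84 ± 0.18, and -1.02, -1.0, -0.72 and -1.24 in testis over reference, a mean of -0.99 ± 0.18. It was higher in the knockout at 0.82 ± 0.18, and in the 15 day testis at 0.48 ± 0.18, where the call was lost without array 2 or 3 (0.41 each). Hmgb3, its X-linked relative, was 0.84, 1.19, 1.13 and 1.19 in the knockout, a mean of 1.09 ± 0.19. Its 15 day value of 0.63 ± 0.19 was not called without array 3 (0.43) or array 4 (0.50). Hmgb3 was also lower in testis over reference (-0.55 ± 0.19; -0.51 or -0.50 and not called without array 1 or 2) and in ovary over reference (-0.58 ± 0.17; -0.46 or -0.53 and not called without array 1 or 5). Hmga2, which binds AT-rich DNA and is known from embryonic cells, was -1.38, -0.43, -1.23 and -0.76 in testis over reference, a mean of -0.95 ± 0.17, and -0.57 ± 0.16 in ovary over reference, with no call in the other 3 comparisons. Hmga2 has 2 more probes, which missed the filter but have values on all 9 reference arrays, and they gave larger ratios: -2.92 ± 0.21 and -3.61 ± 0.28 in testis over reference, and -3.99 ± 0.23 and -3.21 ± 0.23 in ovary over reference. With all 3 probes the gene was -2.49 and -2.59 in these comparisons. Mouse DNA is known to hold processed copies of Hmgn1, Hmgn2 and Hmgb1, and whether the probes separate them was not tested.

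The 5 X-linked members, Kdm5c, Kdm6a, Hmgb3, Hmgn5 and Smarca1, had a median log2 ratio of 1.09 in the knockout, where 4 were higher and none lower. All 119 X-linked genes measured had a median of 0.81 there, with 66 higher and 16 lower. In the 15 day testis 3 of the 5 were higher and none lower (median 0.76), beside 48 higher and 15 lower of the 119 (median 0.50). In testis over reference 4 were lower and none higher (median -0.90), beside 57 lower and 20 higher of the 119 (median -0.42). The 48 autosomal members had medians of 0.07, 0.19 and 0.26 in these 3 comparisons. X-linked members and X-linked genes at large thus had medians of the same sign in each.

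The knockout and the 15 day testis can be compared through the difference of their ratios, since they share no arrays; both set a testis against wild type testis. None of the 53 members was called for that difference, where limma called 2.40% of all genes, 2.04% higher and 0.358% lower; 3 members had an unadjusted p under 0.05. These were Setd1a at -1.39 ± 0.48 (adjusted p = 0.151), Setd2 at -0.69 ± 0.33 (adjusted p = 0.33) and Kdm3b at -0.59 ± 0.26 (adjusted p = 0.292). Without knockout array 4, Setd1a was called, at -1.88 (adjusted p = 0.0285). The 95% interval of the Setd1a difference ran from -2.39 to -0.39, and across the members the differences ranged from -1.39 to 1.12. The absence of a call does not show that the members changed alike.

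**Figure D4:**
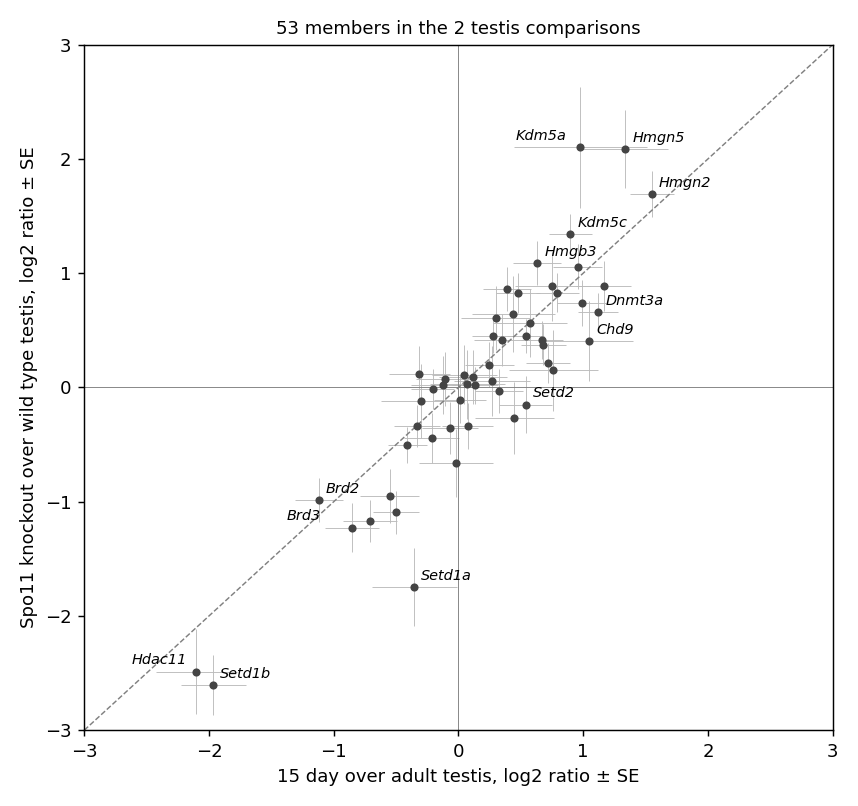
Log2 ratio of each of the 53 members in 15 day over adult testis (horizontal axis) and in Spo11 knockout over wild type testis (vertical axis), with standard errors; the dashed line marks equal values. Hmgn2, Hmgn5 and Kdm5c lie in the upper right, Setd1b, Hdac11, Brd2 and Brd3 in the lower left, and Setd1a lies below the line.

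Ovary and testis can also be compared through the reference, on 9 arrays that are not those of the direct comparison. That route called 8 members higher in ovary and 12 lower, 37.7%, where 46.4% of all genes were called, 17.6% higher and 28.7% lower; within run 3 alone it called 4 and 6. For Setd1b it gave -2.16 ± 0.38 beside the direct -2.23 ± 0.26, for Kdm3a -1.99 ± 0.27 beside -2.13 ± 0.22, and for Kdm5b -1.57 ± 0.27 beside -1.53 ± 0.20. On the other side Hmgn2 gave 1.87 ± 0.23 beside 1.55 ± 0.17, and Kdm5c 1.74 ± 0.24 beside 1.38 ± 0.18. No member, and 0% of all genes, was called by limma for a difference between the routes; no member and 74 genes had an unadjusted p under 0.05. Hdac11, not called directly, was -1.11 ± 0.44 through the reference; leaving out testis over reference array 1, 2 or 4 or any 1 of ovary over reference arrays 1 to 4 ended that call (-1.18 to -0.92). Hdac3, called directly, was -0.07 ± 0.37 by this route.

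**Figure D5:**
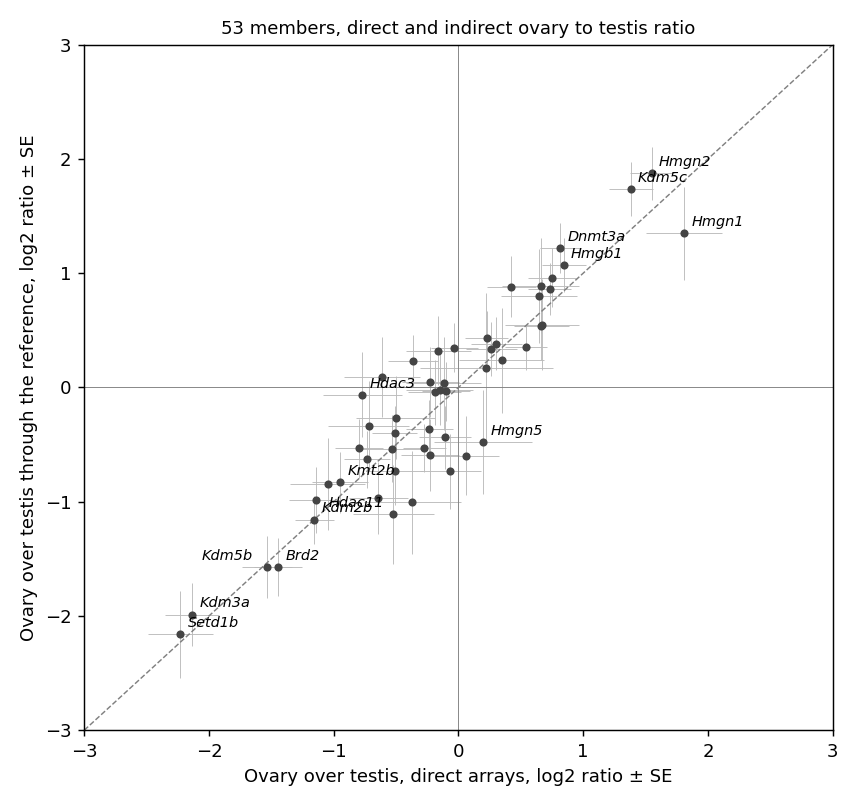
Ovary over testis log2 ratio of the 53 members on the 4 direct arrays (horizontal axis) and through the reference RNA (vertical axis), with standard errors; the dashed line marks equal values. Setd1b, Kdm3a, Kdm5b and Kdm2b are low and Hmgn1, Hmgn2 and Kdm5c are high by both routes, and Hdac3 lies off the line.

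Outside the families, 95 further chromatin genes were measured from lists of Polycomb proteins, acetyltransferases, other methyltransferases, complex partners, remodeller partners, histone chaperones, DNA methylation partners and histones. In ovary over testis 15 of them were higher and 46 lower (median -0.41), or 15.8% and 48.4%, beside 22.4% and 36.5% of all genes. The 15 day testis gave 14 and 27 (median -0.09), or 14.7% and 28.4%, beside 18.0% and 28.1% of all genes. The share lower there was thus near the background. The knockout gave 18 and 36 (median -0.18), or 18.9% and 37.9%, beside 26.7% and 30.5% of all genes. In testis over reference 35 were higher and 21 lower (median 0.24), or 36.8% and 22.1%, beside 35.5% and 25.9% of all genes. Ovary over reference gave 5 and 12 (median -0.11), or 5.26% and 12.6%, beside 9.54% and 13.4% of all genes. The medians of the members lay above those of these 95 genes in ovary over testis, 15 day testis, knockout testis and ovary over reference. In testis over reference the median of the members lay below that of these genes.

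Kat8, Nasp, Chaf1a and Phc1 had larger ratios in size in ovary over testis than any member gave under the rule, Phc1 only slightly (-2.27). Kat8, an acetyltransferase of histone H4, was -3.26 ± 0.22 in ovary over testis, -2.42 ± 0.19 in the 15 day testis, -3.05 ± 0.19 in the knockout and 3.46 ± 0.19 in testis over reference. The chaperones Nasp and Chaf1a, which deliver histones to DNA, were lower in ovary (-3.09 ± 0.27 and -2.98 ± 0.44), 15 day testis (-1.88 ± 0.27 and -2.61 ± 0.44) and knockout testis (-2.07 ± 0.27 and -2.54 ± 0.50). Of 15 chaperones 3 were lower in the 15 day testis and 3 in the knockout, with 1 and 3 higher. Of 15 Polycomb genes 5 were lower (33.3%, near the share of all genes) and 1 higher (6.67%) in the 15 day testis. In the knockout 7 were lower and 2 higher (46.7% and 13.3%). Phc1 and the methyltransferase Ezh2 were lower in both, and Jarid2 was higher in both. Of 16 other methyltransferases and partners 4 were lower and 6 higher in the 15 day testis, and 8 lower and 4 higher in the knockout, where Suv39h2, a heterochromatin methyltransferase, was 1.78 ± 0.22.

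Markers of cell types moved in the same comparisons, and their part in the members' ratios was not tested. Of all genes, 26.7% were higher and 30.5% lower in the knockout, 18.0% and 28.1% in the 15 day testis, and 36.5% lower in ovary. Of 6 measured late spermatocyte markers (13 listed), all were lower in ovary and in the knockout, with means over the list from -2.41 to -1.91 on the knockout arrays, and 4 were lower in the 15 day testis (-1.82 to -0.72). Of 9 Sertoli markers, 8 were higher and none lower in the knockout (1.40 to 1.64), and 4 higher and none lower in the 15 day testis (0.52 to 0.78). Of 10 stroma and matrix markers, 6 were higher in both, with 2 lower in the knockout and 1 in the 15 day testis. Of 5 Leydig markers all were higher in the knockout (1.51 to 1.86), while 2 were lower and none higher in the 15 day testis (-0.96 to -0.77). Of 21 spermatid markers only Tekt2 and Oaz3 were measured, and they differed as given above.

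The 17 genes that missed the filter were Cbx1, Cbx3, Chd1l, Chd3, Chd6, Chd7, Dnmt3b, Dnmt3l, Hdac10, Hdac2, Hmgb2, Kdm4a, Setd3, Setd4, Setd5, Sirt1 and Sirt7. A filter on the arrays of 1 comparison at a time, added after the data were seen, gave 14 of them a value in testis over reference, of which 3 were called higher and 3 lower, and 44.9% of all genes were called under it. Dnmt3l, the cofactor of the new DNA methyltransferases in germ cells, was -2.31, -2.14 and -3.0 in ovary over testis and 1.89, 2.37, 0.70 and 1.61 in testis over reference. Dnmt3b was -2.01 ± 0.22 in testis over reference and 0.70 ± 0.20 (n = 3) in the 15 day testis. Kdm4a, an eraser of methylation on histone H3, was -1.93, -2.71, -1.95 and -2.50 in testis over reference. For these genes the ratios are known only where both sources gave enough arrays with a value.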

How the data were processed

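The authors deposited 1 log2 ratio of 2 colour channels per probe and array, with the base taken from the values; log base, direction, image analysis and normalization are not given in the sources used here. Deposited medians per array ran from 0 to 0.13. Each array was centred on its median. Probes were named through the platform annotation (9604 of 16128 with 1 symbol) and kept with values on at least 3 arrays in each comparison (7561 probes). The values of a gene's tested probes were averaged. A linear model with 1 mean per comparison over all 21 arrays was fitted in limma 3.58.1 (R 4.3.3), with Benjamini-Hochberg adjustment over 4465 genes and a threshold of 0.05. Arrays lack a depth; their number limits the precision. The code was tested on simulated data. Array values are given for the 3 highest and 3 lowest members called with 1 sign on every array in each comparison, for Brdt, and for the widest-ranging member of each subfamily; other array values were chosen after they were seen. Members and lists were chosen with earlier results of these data known. Promoters are RefSeq's.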

Additional observations from a re-analysis of the deposited data

Results flagged for a closer look

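Single arrays stood apart from the others of their group in 23 of 222 member groups of 4 or 5 arrays, by Dixon's test, which flags about 1 group in 20 by chance; no cause was tested. In ovary over testis, array 1 stood apart for Hmgn1 (3.69), Kdm5b (-0.66), Kdm6a (0.18), Smarca5 (0.17) and Smarcal1 (-1.59); it carried the fewest values of all arrays. In 15 day over adult testis, array 2 stood apart for Brd2 (-0.78), Hdac11 (-0.52) and Kdm5b (0.32). In knockout over wild type testis these were array 1 for Kmt2b (-0.48), array 2 for Cbx5 (1.67) and Kdm5c (0.80), and array 3 for Kmt5a (0.50). In testis over reference, array 1 stood apart for Hdac11 (2.06), and array 2 for Hmgn5 (0.69), Kdm1a (1.62), Kdm5c (-2.13), Smarcal1 (1.83) and Smarcc1 (-0.85). In ovary over reference these were array 2 for Smarca1 (0.06), array 3 for Kdm2b (0.42) and Kdm6a (-0.24), and array 4 for Hmgb1 (0.95) and Setd1a (0.84). No member was called for a difference between the knockout and the 15 day ratio.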

How the results depend on the processing

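The members called in every alternative setting, arrays left out included, numbered 15 of 22 in ovary over testis and 8 of 24 in 15 day testis. They numbered 16 of 25 in the knockout, 12 of 26 in testis over reference and 8 of 20 through the reference. In ovary over reference they numbered 0 of 9, since the 2 arrays of run 3 alone called no member. There 7 of the 9 kept the call whichever array was left out. The knockout had no run alone among its alternatives, so these counts rest on unlike sets. The sign turned for Hdac3 in ovary over testis without array 2 (0.025, and -1.22 to 0.025 over its arrays left out in turn) and for Brd3 through the reference with 1 probe per gene (0.34). Probes with values on all 21 arrays left 28 members to test; then 8 members were lower in ovary over testis, 11 higher and 3 lower in 15 day testis, 8 higher in the knockout, 6 higher and 6 lower in testis over reference, 2 and 2 in ovary over reference, and 5 lower through the reference. Array weights called 14 higher and 20 lower in ovary over testis, 13 lower in 15 day testis, and 9 higher and 12 lower in ovary over reference; for that last comparison, scaling all arrays to 1 spread called 10 and 14, no filter 8 lower, and the added filter on its own arrays 7 and 8. Runs alone called 5 higher and 3 lower in 15 day testis (run 2) and 8 higher in ovary over reference (run 5). Run 3 alone called 9 higher in testis over reference, 0 and 0 in ovary over reference, and 4 and 6 through the reference. The shares of all genes called in these runs are not given here, and the cause was not tested. Leaving out 1 array gave 4 to 6 lower members in 15 day testis (4 without array 1) and 0 to 1 lower in the knockout minus 15 day difference. No paired analysis was possible because the labels carry no replicate numbers.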
